A study of Mus musculus with 32 samples.

Results

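The genes described here are 33 targets and regulators of the hypoxia-inducible factors (HIF), listed by gene name as a hypoxia group. These members, and the further lists used below, were chosen with earlier results of these data known. Their shares of calls beside all genes are therefore descriptions and not tests of an independent list. All 33 were found among the 25700 genes that were counted in every library. They fall into 8 genes of oxygen sensing and transcription, 7 of glucose and energy metabolism, 6 of mitochondria, 3 of lipid droplets and lipid uptake, 2 of acid-base balance, 4 of stress and protein folding, and 3 that encode secreted proteins.

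RNA sequencing of 32 libraries was used from tendon assembloids, in which a tail tendon explant (the core) lies inside a collagen-1 hydrogel that is either cell-free or seeded with cells. The cores came from mice of the line B6.129S2-Il6tm1Kopf/J, aged 12 to 15 weeks, with the genotype Il-6+/+ (WT) or Il-6-/- (labelled KO). All assembloids were cultured for 7 days at 20% oxygen. The WT core // cell-free, WT core // fibroblasts, WT core // macrophages, KO core // cell-free and KO core // fibroblasts groups each held 4 core libraries, and the hydrogels seeded with fibroblasts around WT and KO cores held 6 libraries each. A core library was a pool of 20 to 24 explants from 1 mouse. A hydrogel library was a pool of 2 hydrogels and held the seeded fibroblasts, which came from Il-6+/+ Achilles tendons of 6 mice, as well as cells that had left the core. In both hydrogel groups the seeded cells were therefore WT, and the groups differed in the genotype of the core. The labels call the seeded fibroblasts progenitors, and they were a mixed population expanded in culture.

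HIF is a transcription factor made of an oxygen-sensitive alpha subunit (Hif1a or Epas1) and a stable partner. In the presence of oxygen, prolyl hydroxylases of the Egln family mark the alpha subunit for destruction by the Vhl ubiquitin ligase, so that the protein can accumulate when oxygen is low without a rise of its mRNA. Once stable, HIF binds short motifs near its target genes, which raise glucose uptake and glycolysis, hold back mitochondrial respiration, export acid, and include its own hydroxylases as a feedback. Tendon is a sparsely vascularized tissue.

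To show what the start sites of these genes look like, RefSeq promoter windows of the assembly GRCm38.p6 were searched for the HIF core motif. The windows were cut to the 250 bases before the start, and ACGTG and GCGTG were searched for on both strands. An overlapping pair such as the palindrome CACGTG counts as 2 matches. Of the 33 members, 26 had a window, and 24 of these (92.3%) held at least 1 match in any of their windows, against 41.5% of 27025 genes. At least 2 matches were present in 61.5% of the members and 18.7% of all genes. Because the members were listed as targets and regulators of HIF, a larger share may be built into the list. The windows of the members were also richer in G and C, with a median of 67.0% against 52.8% over all genes. The shares were not matched for this, for the number of windows per gene or for expression in these libraries. The promoters of 6 genes are printed here in the gene's own direction with matches in capitals. Mgarp, Car9, Egln3 and Ddit4 are shown because they had the largest fold changes among the members that were called in both fibroblast comparisons and had a window, and Fam162a and Bnip3 because they held the most matches. The positions are chr3:51396548-51396797 (minus strand) for Mgarp, chr4:43506776-43507025 (plus strand) for Car9, chr12:54203875-54204124 (minus strand) for Egln3, chr10:59951771-59952020 (minus strand) for Ddit4, chr16:36071562-36071811 (minus strand) for Fam162a, chr7:138909507-138909756 (minus strand) for Bnip3. A match is a description of the letters and not of binding.
Mgarp: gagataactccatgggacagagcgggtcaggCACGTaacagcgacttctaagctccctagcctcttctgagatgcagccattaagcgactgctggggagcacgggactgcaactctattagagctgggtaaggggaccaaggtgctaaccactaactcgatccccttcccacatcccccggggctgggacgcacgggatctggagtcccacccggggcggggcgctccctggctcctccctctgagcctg
Car9: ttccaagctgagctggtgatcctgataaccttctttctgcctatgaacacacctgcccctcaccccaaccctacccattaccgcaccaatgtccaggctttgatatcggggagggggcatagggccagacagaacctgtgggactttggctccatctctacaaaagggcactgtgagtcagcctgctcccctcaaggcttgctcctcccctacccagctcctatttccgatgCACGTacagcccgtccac
Egln3: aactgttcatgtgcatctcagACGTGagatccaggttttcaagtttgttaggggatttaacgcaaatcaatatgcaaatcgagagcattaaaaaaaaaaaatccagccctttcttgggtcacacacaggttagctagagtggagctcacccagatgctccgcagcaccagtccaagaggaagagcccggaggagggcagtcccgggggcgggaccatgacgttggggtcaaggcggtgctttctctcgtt
Ddit4: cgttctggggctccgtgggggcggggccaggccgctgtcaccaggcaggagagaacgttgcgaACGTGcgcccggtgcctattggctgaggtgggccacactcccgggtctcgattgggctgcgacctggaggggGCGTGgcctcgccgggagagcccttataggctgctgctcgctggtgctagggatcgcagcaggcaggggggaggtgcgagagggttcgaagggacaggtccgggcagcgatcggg
Fam162a: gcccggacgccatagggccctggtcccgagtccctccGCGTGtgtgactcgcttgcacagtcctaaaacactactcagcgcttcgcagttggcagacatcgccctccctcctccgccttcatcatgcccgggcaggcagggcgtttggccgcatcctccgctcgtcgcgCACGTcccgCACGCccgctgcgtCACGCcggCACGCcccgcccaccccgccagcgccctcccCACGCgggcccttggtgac
Bnip3: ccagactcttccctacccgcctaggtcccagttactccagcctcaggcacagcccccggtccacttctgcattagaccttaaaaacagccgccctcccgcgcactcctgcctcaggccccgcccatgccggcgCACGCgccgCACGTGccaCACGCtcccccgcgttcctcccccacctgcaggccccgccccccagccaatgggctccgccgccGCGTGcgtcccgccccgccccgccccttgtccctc

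In Car9 the single match began 18 bases before the start, while the single matches of Mgarp and Egln3 began 219 and 229 bases before it. Fam162a held 6 matches, from 213 to 19 bases before the start, and Bnip3 held 5, from 117 to 35 bases before it. No window was found for Epas1, Bhlhe40, Slc2a3, Bnip3l, Ndufa4l2, Ndrg1 and Nxph4.

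The total count per library was 20.4 to 59.9 M estimated counts (M, 1000000). Levels are given as CPM, counts per 1000000 counts after TMM scaling (a trimmed mean of M values) across all 32 libraries. They are compared for one gene between groups and not between genes, since they are not divided by length. Il6, the gene targeted in the KO line, was counted in every library labelled KO. It ran from 6.51 to 20.5 CPM in KO cell-free cores against 1.90 to 11.7 CPM in WT cell-free cores, from 10.5 to 37.1 CPM against 4.96 to 11.8 CPM in cores with fibroblasts, and from 5.63 to 40.0 CPM against 4.58 to 10.4 CPM in the hydrogels. In the hydrogels labelled KO the seeded fibroblasts were Il-6+/+ and may supply Il6 reads, so the counts there do not test the genotype of the core. In KO cores with fibroblasts, seeded cells that had entered the explant may do the same. Counts per gene do not show which exons the reads cover, and IL-6 protein was not analysed here. The KO groups are therefore called labelled KO, and every direction drawn between genotypes rests on the labels.

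The 9 tendon fibroblast markers were present in all core libraries, with summed levels of 27240 to 45600 CPM in WT cell-free cores and 29640 to 59360 CPM in WT cores with fibroblasts. A list of 12 macrophage and leukocyte markers was also abundant, with none at 0 in any group. Its sum ran from 9801 to 13370 CPM in WT cell-free cores and from 8749 to 9524 CPM in WT cores with fibroblasts, and from 6130 to 18810 CPM and 8134 to 9859 CPM in the same groups labelled KO. A list of 8 endothelial markers summed to 22.1 to 25.4 CPM in WT cell-free cores and 11.1 to 19.1 CPM in WT cores with fibroblasts. In these bulk libraries, fewer cells of a type and less RNA per cell cannot be told apart. The part of cell composition in the results was not tested.

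Some libraries stood apart over the members. WT core // fibroblasts replicate 4 was the lowest of its 4 libraries in 25 of 33 members, and KO core // fibroblasts replicate 3 was the lowest of its 4 in 27. On the high side, WT core // fibroblasts replicate 2 was the highest in 21 members and WT core // macrophages replicate 2 in 19. KO core // fibroblasts replicate 2 and WT hydrogel replicate 5 were each the highest in 16. Such ranks were not counted over all genes. In the hydrogels labelled KO, replicate 4 was the lowest in 17 members, replicate 5 in 12, and replicate 6 the highest in 20. Hydrogel replicate 5 labelled KO also had the lowest level of the macrophage marker Lyz2, with 1515 CPM against 8588 to 22130 CPM in the other 5. Its part in the low values of that library was not tested.

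**Figure D1:**
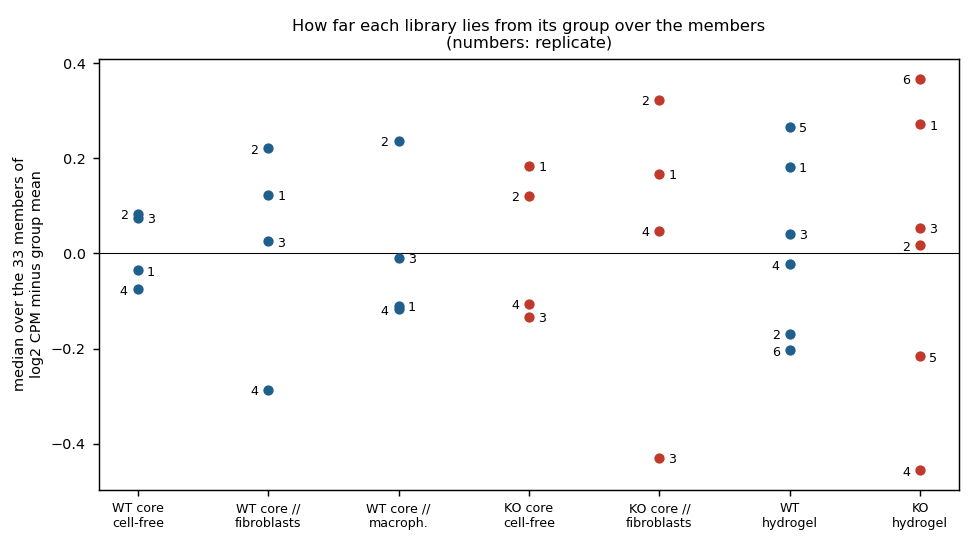
Each point is 1 library, placed by group on the horizontal axis and by the median over the 33 members of its log2 CPM minus the mean of its group on the vertical axis. WT core // fibroblasts replicate 4 (-0.29), KO core // fibroblasts replicate 3 (-0.43) and KO hydrogel replicate 4 (-0.46) lie lowest, and KO hydrogel replicate 6 (0.37) and KO core // fibroblasts replicate 2 (0.32) highest.

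The first comparison set WT cores inside hydrogels seeded with fibroblasts against cell-free WT cores. Core libraries of assembloids with fibroblasts, of either genotype, may also hold seeded cells that had entered the explant. Their RNA cannot be told apart from that of the explant's own cells in these bulk libraries. With fibroblasts, 19 of the 33 members were called higher and none lower, where called means an adjusted p under 0.05 and a log2 fold change beyond 0.5. Of 16188 genes tested, 1.51% were called higher and 1.11% lower. The median log2 fold change of the members was 0.97, against -0.02 over all genes, and 28 of the 33 were on the positive side. The calls came from all 7 groups of members, with 5 of 6 mitochondrial genes, both genes of acid-base balance, and 4 of 8 genes of oxygen sensing and transcription.

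Among the oxygen sensors, Egln3 encodes the prolyl hydroxylase that is itself a classical HIF target. Its level was 0.382, 1.46, 0.972 and 0.687 CPM in WT cell-free cores, and 3.33, 5.83, 3.00 and 1.28 CPM in WT cores with fibroblasts. The groups overlapped only through the fourth fibroblast library, which was under the highest cell-free one. The log2 fold change was 1.98 ± 0.48 (SE, adjusted p = 0.0495 from edgeR, n = 4 and 4). Egln1, the main hydroxylase acting on HIF alpha subunits, rose by 0.62 ± 0.14 (log2 fold change, adjusted p = 0.0444 from edgeR).

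Hif1a itself, the alpha subunit, stood at 348, 344, 441 and 311 CPM without cells and at 581, 633, 564 and 527 CPM with fibroblasts. Every fibroblast library lay above every cell-free one, and the log2 fold change was 0.69 ± 0.12 (adjusted p = 0.0196 from edgeR). The other alpha subunit, Epas1 (HIF-2 alpha), spread from 132 to 396 CPM without cells and from 122 to 222 CPM with fibroblasts, a log2 fold change of -0.37 ± 0.34 that was not called. The transcriptional repressor Bhlhe40, a HIF target, was called with 0.97 ± 0.18 (adjusted p = 0.0230 from edgeR), whereas its paralog Bhlhe41 (-0.27 ± 0.09) was not. The MAX interactor Mxi1 (-0.12 ± 0.08) and the histone demethylase Kdm3a (0.14 ± 0.06) were not called either.

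Car9, a membrane-bound carbonic anhydrase that handles the acid of glycolytic cells, was among the members with the largest change. It measured 3.05, 4.19, 4.37 and 2.99 CPM in WT cell-free cores and 16.7, 20.2, 13.4 and 6.15 CPM with fibroblasts, so the groups did not overlap. The log2 fold change was 1.97 ± 0.32 (adjusted p = 0.0169 from edgeR), and p was 0.0286 by an exact permutation test (two-sided), the smallest that 4 against 4 allows. A second carbonic anhydrase, Car12, rose by 1.37 ± 0.30 (log2 fold change, adjusted p = 0.0376 from edgeR), from 2.85 ± 0.588 CPM to 7.35 ± 3.19 CPM (SD over 4 libraries).

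In the mitochondrial group, Mgarp had the largest fold change of any member. It is a mitochondrial protein linked to the transport of mitochondria in hypoxia. Its level was 0.115, 0.530, 0.259 and 0.149 CPM without cells, which are 3 to 12 counts per library, and 1.66, 2.73, 2.16 and 0.739 CPM with fibroblasts. All 4 fibroblast libraries were above all cell-free ones, and the log2 fold change of 2.85 ± 0.51 (adjusted p = 0.0220 from edgeR) rests on these low counts.

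Ndufa4l2 encodes a HIF target that lowers the activity of respiratory complex I. It rose from 15.2, 22.3, 22.5 and 15.1 CPM to 81.9, 71.0, 61.7 and 34.4 CPM, with no overlap (log2 fold change 1.74 ± 0.25, adjusted p = 0.0120 from edgeR). Bnip3, a receptor for the removal of mitochondria by autophagy, rose by 1.18 ± 0.21, Fam162a by 1.10 ± 0.19, and Higd1a, which acts on the respiratory chain, by 1.08 ± 0.13 (log2 fold changes, adjusted p of 0.0200, 0.0217 and 0.00991 from edgeR). The Bnip3 paralog Bnip3l was not called, with 0.09 ± 0.07.

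In all, 3 of 7 genes of glucose and energy metabolism were called. Pdk1, the kinase that shuts off pyruvate dehydrogenase and so keeps pyruvate out of the mitochondrial cycle, rose by 1.03 ± 0.16 on the log2 scale, its level being 43.7 ± 5.92 CPM without cells and 88.4 ± 18.6 CPM with fibroblasts (SD, n = 4). The lactate exporter Slc16a3 rose by 1.43 ± 0.30 and the adenylate kinase Ak4 by 1.47 ± 0.32 on the log2 scale (adjusted p of 0.0355 and 0.0375 from edgeR), and in both the fourth fibroblast library fell among the cell-free ones. The glucose transporter Slc2a1 had 0.69 ± 0.17 but missed the threshold (adjusted p = 0.0581 from edgeR). Its relative Slc2a3 had 0.25 ± 0.09, and the regulators of glycolytic flux Pfkfb3 and Pfkfb4 had 0.50 ± 0.15 and -0.31 ± 0.10, none of them called.

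Of the lipid genes, the lipoprotein receptor Vldlr rose by 1.07 ± 0.17 and Hilpda, which inhibits lipolysis at lipid droplets, by 0.63 ± 0.13 on the log2 scale (adjusted p of 0.0159 and 0.0311 from edgeR). Plin2, a coat protein of lipid droplets, was not called and had -0.33 ± 0.16. Among the stress genes, Ddit4, an inhibitor of mTORC1, was called with 1.62 ± 0.24 and the ankyrin repeat gene Ankrd37 with 1.12 ± 0.26 (adjusted p of 0.0130 and 0.0426 from edgeR). Ddit4 measured 8.21, 7.06, 7.71 and 4.60 CPM without cells and 24.4, 27.3, 18.2 and 13.5 CPM with fibroblasts. Ero1a, an oxidase of protein folding in the endoplasmic reticulum, and Ndrg1 had smaller values of 0.29 ± 0.09 and 0.26 ± 0.07 and were not called.

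Of the secreted proteins, Nxph4, a neurexophilin, was called. It measured 1.18, 1.15, 1.91 and 1.02 CPM without cells and 4.05, 3.22, 4.01 and 3.49 CPM with fibroblasts, and its log2 fold change was 1.50 ± 0.21 (adjusted p = 0.0110 from edgeR). The vasodilator peptide adrenomedullin (Adm) had 0.81 ± 0.23 and the stanniocalcin Stc2 had 0.98 ± 0.33, with adjusted p of 0.0803 and 0.121 from edgeR. WT cores of different groups share title codes and animal numbers. In a fit blocked on these, both genes passed, with 0.86 ± 0.17 and 1.00 ± 0.22 (adjusted p of 0.0372 and 0.0479 from edgeR). That fit called 21 members, against 1.83% of all genes called higher and 1.33% lower.

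The number of calls leaned on single libraries. Without WT core // fibroblasts replicate 1, replicate 3 or WT core // cell-free replicate 1, the members called fell from 19 to 2, 4 and 6, while the genes called higher fell from 244 to 41, 47 and 94. Ndufa4l2 and Higd1a were called in all 3 of these fits. Without the fibroblast library that stood apart as low (replicate 4), 20 members were called, and 146 genes were called higher.

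**Figure D2:**
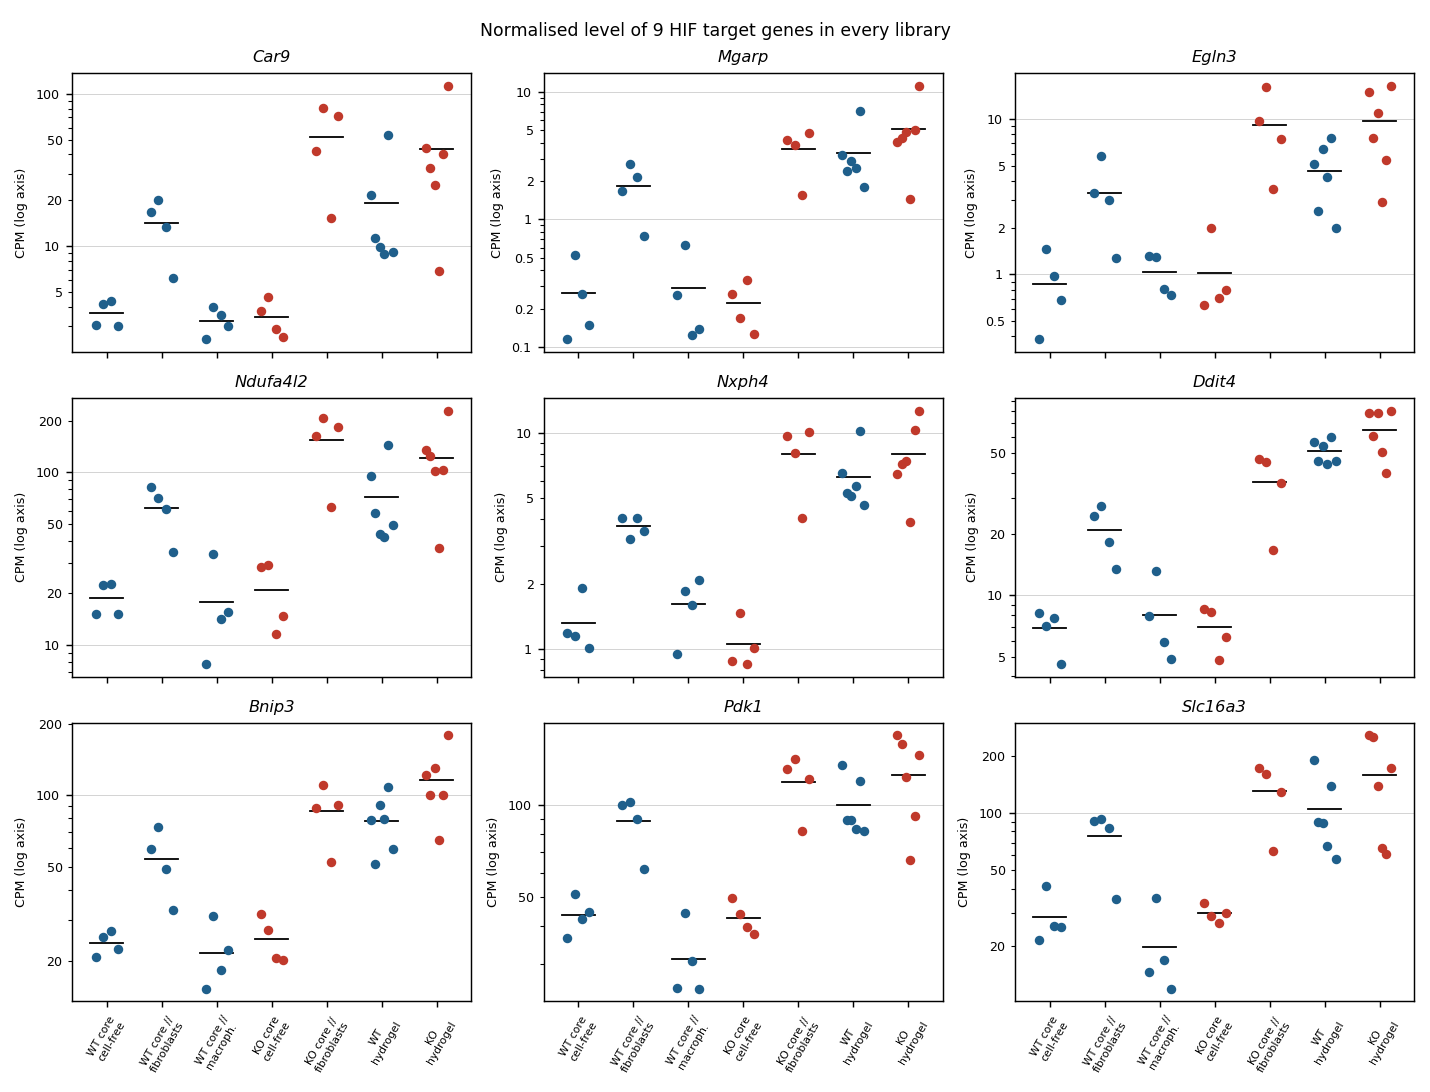
Points show the level of 9 members in every library as CPM on a log axis, with 1 panel a gene, blue for WT and red for labelled KO, and a black line for the group mean. Car9 reaches 81.2 CPM in a core with fibroblasts and 113 CPM in a hydrogel, both labelled KO, against at most 4.67 CPM in any cell-free core.

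The same comparison in cores labelled KO used other libraries throughout. With fibroblasts, 14 of 33 members were called higher and none lower, against 0.301% and 0.132% of 15965 genes. The members thus made up 14 of the 48 genes called higher. The median log2 fold change was 1.07, against -0.02 over all genes, and 31 members were on the positive side. In all, 12 members were called in both genotypes, which is 63.2% of the 19 called in WT cores and 85.7% of the 14 called here. The same overlap was not counted over all genes, so these shares have no value to stand beside.

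Mgarp and Car9 had the largest fold changes. Car9 measured 3.76, 4.67, 2.85 and 2.52 CPM without cells and 41.9, 81.2, 15.2 and 71.1 CPM with fibroblasts, a log2 fold change of 3.91 ± 0.48 (adjusted p = 0.0146 from edgeR). Fibroblast replicate 3 lay far under the other 3 but still above every cell-free one. Mgarp went from 0.222 ± 0.0927 CPM to 3.60 ± 1.40 CPM (SD, n = 4 each, log2 fold change 3.94 ± 0.42).

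The hydroxylase Egln3 measured 0.638, 1.98, 0.702 and 0.799 CPM without cells and 9.67, 16.2, 3.53 and 7.48 CPM with fibroblasts (log2 fold change 3.18 ± 0.51, adjusted p = 0.0355 from edgeR). Nxph4 rose from 0.875, 1.47, 0.850 and 1.01 CPM to 9.70, 8.10, 4.02 and 10.1 CPM (2.92 ± 0.32, adjusted p = 0.00771 from edgeR). In both genes the groups did not overlap, and fibroblast replicate 3 was the lowest. Ndufa4l2 followed with 2.86 ± 0.42 (adjusted p = 0.0267 from edgeR), from 20.9 ± 9.12 CPM to 154 ± 63.6 CPM (SD over 4 libraries).

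The remaining calls were Ddit4 (2.35 ± 0.32), Slc16a3 (2.13 ± 0.27), Bnip3 (1.77 ± 0.23), Ak4 (1.74 ± 0.28), Pdk1 (1.47 ± 0.17), Bhlhe40 (1.31 ± 0.22), Pfkfb3 (1.07 ± 0.16), Egln1 (1.06 ± 0.16) and Slc2a1 (1.00 ± 0.17), all as log2 fold changes with adjusted p from 0.0109 to 0.0382 in edgeR. Pfkfb3 and Slc2a1 were called here and had missed the threshold in WT cores in edgeR. DESeq2 called both genes in WT cores and in cores labelled KO. Hif1a had 0.69 ± 0.13, close to its value in WT cores, and fell just outside the threshold (adjusted p = 0.0514 from edgeR), as did Fam162a (1.42 ± 0.26, adjusted p = 0.0538). Members without a call had between -0.66 ± 0.23 (Plin2) and 1.98 ± 0.48 (Stc2).

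In this comparison, core replicates with the same number deviated together, and a fit with the replicate number as a block called 22 members, all 14 and 8 more. Over all genes, the block raised the calls from 48 to 223 higher (1.4%) and from 21 to 185 lower (1.16%). The 8 were Adm, Ankrd37, Higd1a, Stc2, Hif1a, Ndrg1, Fam162a and Vldlr, with log2 fold changes from 0.60 ± 0.11 (Ndrg1) to 1.85 ± 0.27 (Stc2). Without the block, the calls rested on few libraries. They fell to 1 without cell-free replicate 3 and to 1 without cell-free replicate 4, to 2 without fibroblast replicate 4, to 4 without fibroblast replicate 2 and to 5 without fibroblast replicate 1. Over all genes, those called higher fell from 48 to 3, 6, 7, 11 and 14 in the same fits. Mgarp was called in each of them. Without fibroblast replicate 3, the library that stood apart as low, 16 members were called, and 79 genes were called higher.

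**Figure D3:**
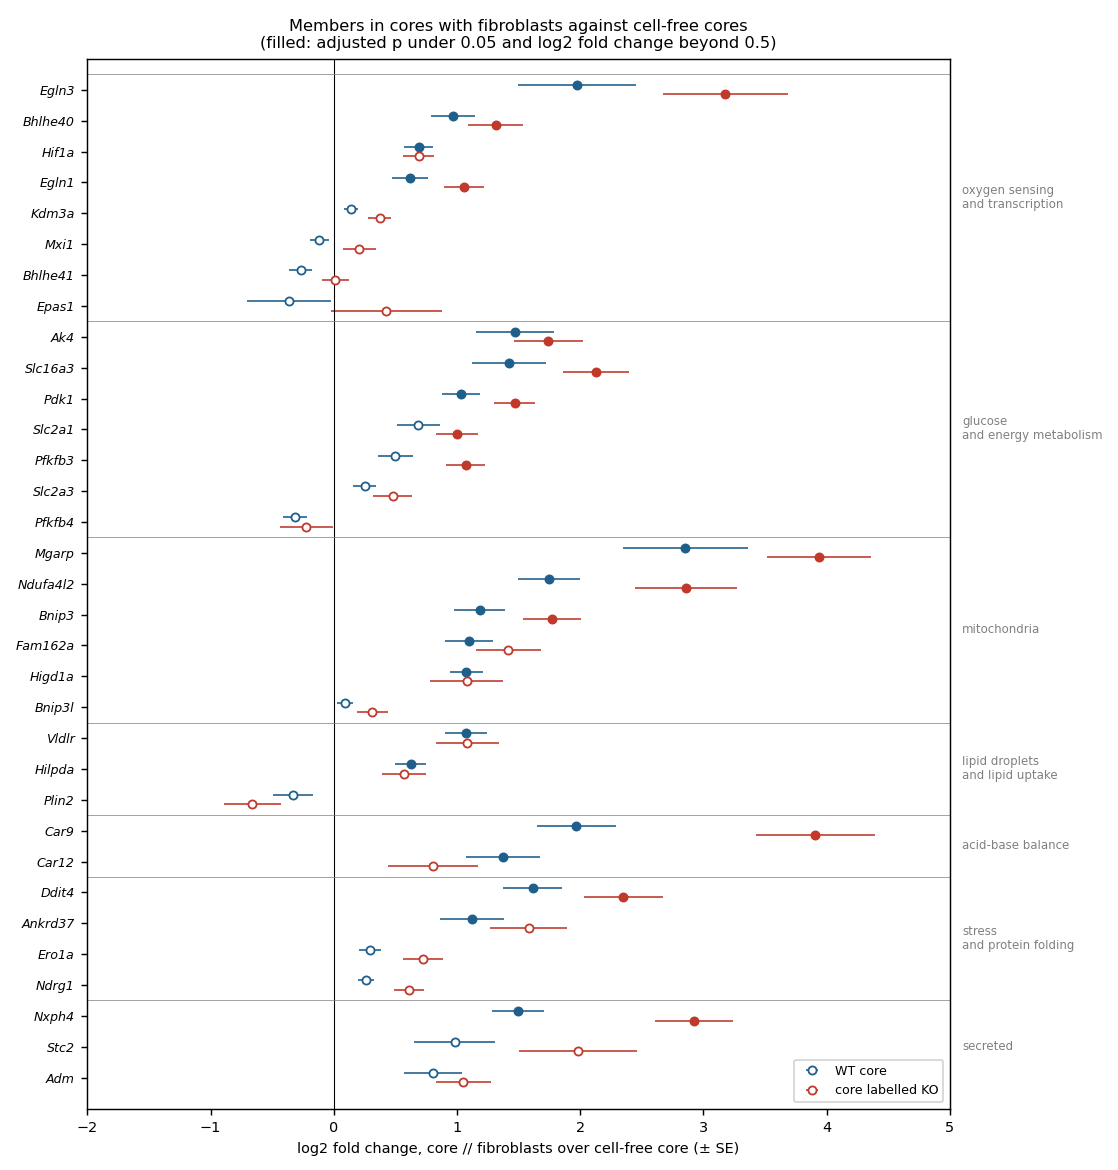
Points show the log2 fold change of core // fibroblasts over cell-free core for all 33 members, grouped by role, in WT cores (blue) and cores labelled KO (red), with bars for the standard error and filled points for called members. Values run from -0.66 for Plin2 to 3.94 for Mgarp, both in cores labelled KO, and the red point lies to the right of the blue one for most members.

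Whether the change with fibroblasts differed between genotypes was tested as an interaction over 16 core libraries. No member passed an adjusted p under 0.05, and neither did any other of the 16772 genes (0.0%, lowest adjusted p = 0.985 from edgeR). The fitted difference was positive, with a larger change in cores labelled KO, for 28 of 33 members, and its median was 0.34 on the log2 scale. At an unadjusted p under 0.05 there were 7 members, all with the larger change in cores labelled KO, and 504 genes in all, and DESeq2 called 1 gene, not a member. Nxph4 differed by 1.42 ± 0.40 (unadjusted p = 0.00248 from edgeR), Car9 by 1.93 ± 0.61 (unadjusted p = 0.00607 from edgeR) and Pfkfb3 by 0.56 ± 0.23 (unadjusted p = 0.0259 from edgeR), as differences of log2 fold changes.

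Cores with fibroblasts were also compared directly between genotypes, which uses the same fibroblast libraries. By the threshold that the study set for this comparison, an unadjusted p under 0.05 and a log2 fold change beyond 0.5, 10 members were called higher in cores labelled KO and none lower, against 1.55% and 0.883% of 16088 genes. In edgeR, the adjusted p stayed over 0.05 for every gene (lowest 0.0723, with 1428 genes under an unadjusted p of 0.05), while DESeq2 called 13 genes higher and 16 lower, among them 1 member, Nxph4. These calls therefore carry no control of false discoveries. The median log2 fold change of the members was 0.43, against 0.00 over all genes, and 31 of the 33 were on the positive side.

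Adm was the called member whose groups did not overlap. It measured 43.8, 57.1, 53.2 and 40.7 CPM in WT cores with fibroblasts and 60.4, 105, 58.3 and 84.2 CPM in those labelled KO (log2 fold change 0.66 ± 0.19, unadjusted p = 0.00602 from edgeR, exact permutation p = 0.0286). The other 9 calls were Car9 (1.89 ± 0.49), Egln3 (1.44 ± 0.48), Ndufa4l2 (1.31 ± 0.35), Nxph4 (1.11 ± 0.25), Mgarp (0.97 ± 0.40), Slc16a3 (0.79 ± 0.34), Ddit4 (0.79 ± 0.31), Bnip3 (0.67 ± 0.26) and Fam162a (0.57 ± 0.25). In each of these 9 the groups overlapped, and the exact permutation p (two-sided) ran from 0.0571 to 0.143. Hif1a, with 0.06 ± 0.09, and Plin2, with -0.02 ± 0.12, were near 0.

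The 2 libraries that stood apart as low moved the count in opposite directions. It was 16 without the low library labelled KO (replicate 3) and 5 without the low WT library (replicate 4). Without both, a choice made after the values had been seen, it was 10. The count was also 4 without KO core // fibroblasts replicate 2 and 6 without WT core // fibroblasts replicate 3. Genes called higher over all genes numbered 256, 257, 236, 269 and 173 in these fits, against 250 with all libraries. Car9, Ndufa4l2, Nxph4 and Egln3 were called in each of these fits. Within the codes of the sample titles, the members' median difference was 0.40 on the log2 scale for code 150, 0.19 for 152 and 0.65 for 154, so that it was positive in all 3. Codes 150 and 154 each set 1 library against 1, and code 152 set 2 against 2. The WT library of code 154 was the low one, and code 152 held the low library labelled KO.

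Without added cells, no member was called between the genotypes. In cell-free cores, no gene was called either (0.0% of 16065 genes in either direction, with 339 genes at an unadjusted p under 0.05 in edgeR, while DESeq2 called 8 genes higher and 5 lower, none of them a member). Mgarp did not pass the filter on low counts. Of the 32 members that did, 19 were on the positive side and 13 on the negative, with a median log2 fold change of 0.04. The lowest p belonged to Ndrg1, at 93.6 ± 4.51 CPM in cores labelled KO and 110.2 ± 2.74 CPM in WT cores (SD, n = 4 each, log2 fold change -0.21 ± 0.08, unadjusted p = 0.0263 from edgeR). Next came Car12 (0.56 ± 0.26) and Adm (0.41 ± 0.26). Car9 stood at 3.45 ± 0.967 CPM and 3.65 ± 0.733 CPM, a log2 difference of -0.05 ± 0.24.

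Macrophages seeded around a WT core were compared with the same cell-free cores. Of the 32 members tested, 1 was called higher and 3 lower, against 0.754% and 3.85% of 16441 genes, and the median log2 fold change was -0.06. Bhlhe41, a repressor of the circadian clock family, was lower, from 54.2, 52.6, 46.5 and 42.5 CPM to 29.5, 32.1, 29.0 and 31.2 CPM with no overlap (log2 fold change -0.67 ± 0.09, adjusted p = 0.00432 from edgeR). The level of Ero1a fell from 37.0 ± 1.85 CPM to 24.6 ± 3.54 CPM, and that of Plin2 from 199 ± 44.4 CPM to 115 ± 21.4 CPM (SD over 4 libraries). Their log2 fold changes were -0.58 ± 0.11 and -0.78 ± 0.18 (adjusted p of 0.0149 and 0.0346 from edgeR).

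The one call upward was Pfkfb3, the kinase that makes the activator of phosphofructokinase, from 58.1 ± 13.1 CPM to 89.3 ± 4.42 CPM (log2 fold change 0.63 ± 0.14, adjusted p = 0.0280 from edgeR). Mgarp, with the largest fold change in both fibroblast comparisons, did not pass the filter on low counts here and was not tested. Other members that led the fibroblast comparisons were not called. They had -0.15 ± 0.21 for Car9, 0.29 ± 0.38 for Egln3, -0.06 ± 0.37 for Ndufa4l2 and -0.12 ± 0.19 for Bnip3. The summed macrophage and leukocyte markers ran from 5193 to 11970 CPM beside seeded macrophages and from 9801 to 13370 CPM in cell-free cores, and 6 of 6 markers of cycling cells were called lower. Whether they have a part in these values was not tested.

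Same-numbered cores deviated together in the macrophage comparison, and a fit blocked on the number called 7 members, with Slc2a1 (-0.69 ± 0.11), Slc16a3 (-0.59 ± 0.14) and Vldlr (0.67 ± 0.14) besides the 4, against 1.46% of all genes called higher and 4.92% lower. Without WT core // macrophages replicate 1 or replicate 3, 1 member was called, Bhlhe41. Without WT core // cell-free replicate 2 or replicate 4, 2 were called, Bhlhe41 and Ero1a. Genes called lower over all genes fell from 633 to 357, 233, 371 and 435 in these fits.

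In the hydrogels, the seeded fibroblasts were WT and the core differed. By the study's threshold, unadjusted as in the cores with fibroblasts, 4 members were called higher around cores labelled KO and none lower, against 0.506% and 0.25% of 15227 genes. Adjusted, no gene was under 0.05 in edgeR (404 genes at an unadjusted p under 0.05), and DESeq2 called 1 gene, not a member. The median log2 fold change was 0.33, against -0.01 over all genes, and 29 of 33 members were on the positive side.

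The peptide Adm ranged from 16.1 to 28.0 CPM (median 23.3) around WT cores and from 22.4 to 66.1 CPM (median 36.1) around cores labelled KO, a log2 fold change of 0.75 ± 0.22 (unadjusted p = 0.00521 from edgeR). Egln3 ranged from 2.00 to 7.61 CPM (median 4.70) and from 2.91 to 16.4 CPM (median 9.26), with 1.06 ± 0.43 (unadjusted p = 0.0275 from edgeR). The groups overlapped in both genes. Bnip3 and Fam162a, both mitochondrial, had 0.57 ± 0.23 and 0.51 ± 0.20 (unadjusted p of 0.0288 and 0.0219 from edgeR). Car9 was not called, with a log2 fold change of 1.20 ± 0.62, and ranged from 8.82 to 53.8 CPM around WT cores and from 6.91 to 113 CPM around cores labelled KO.

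Hydrogel libraries with the same number deviated together, and the fit with that number as a block called 2 members, Adm (0.69 ± 0.23) and Bnip3 (0.55 ± 0.23), while Egln3 (0.97 ± 0.46) and Fam162a (0.48 ± 0.19) were lost. Of all genes, this fit called 0.578% higher and 0.814% lower. The count was 9 without KO hydrogel replicate 4 and 8 without WT hydrogel replicate 5. Over all genes, those called higher went from 77 to 96 and 95 in these 2 fits. The count of members was 1 without WT hydrogel replicate 2, WT hydrogel replicate 6 or KO hydrogel replicate 6, and 2 without KO hydrogel replicate 3. Genes called higher numbered 58, 69, 49 and 73 in the same fits. Adm was called in every one of the 12 fits that left out 1 library. The block without pair 5, added after its low macrophage markers had been seen, called 9 members. Over all genes, that fit called 158 of 15285 higher and 270 lower.

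Comparing the hydrogel with the core of the same kind of assembloid sets the outer compartment against the explant. Many genes separate these compartments, with 18.1% of 16037 genes called higher and 24.7% lower in the WT hydrogel. Here 7 of 33 members were called higher and 5 lower, with a median log2 fold change of 0.27. In assembloids labelled KO, 3 were called higher and 5 lower, against 17.0% and 24.6% of 16084 genes, with a median of 0.09. These counts lay near or under the shares over all genes.

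The same 5 members were called lower in the hydrogel of both genotypes, namely Ndrg1, Adm, Kdm3a, Epas1 and Bhlhe40. Ndrg1, a stress-induced differentiation gene, ranged from 45.3 to 75.2 CPM (median 57.1) in WT hydrogels, and stood at 148, 122, 128 and 126 CPM in WT cores with fibroblasts (log2 fold change -1.19 ± 0.12). Kdm3a ranged from 38.5 to 48.8 CPM (median 44.7) and stood at 77.7, 81.4, 74.3 and 74.4 CPM in the cores (-0.86 ± 0.07). Neither gene overlapped between the compartments in WT or in KO assembloids, where the log2 fold changes were -1.13 ± 0.13 and -0.88 ± 0.09. Epas1, known for its high level in endothelial cells, had -0.76 ± 0.21 in WT and -1.22 ± 0.31 in KO assembloids, Adm had -1.15 ± 0.14 and -1.04 ± 0.27, and Bhlhe40 had -0.66 ± 0.12 and -0.84 ± 0.20. For Epas1 the compartments overlapped in both genotypes. Within title code 150 its log2 difference was 0.06 in WT and -0.10 in KO assembloids. Within codes 152 and 154 it was -1.16 and -1.06 in WT, and -1.33 and -1.73 in KO assembloids.

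Plin2 and Ddit4 were called higher in the hydrogel of both genotypes. Plin2 ranged from 267 to 356 CPM (median 300.1) in WT hydrogels, above the 135, 184, 171 and 133 CPM of the cores (log2 fold change 0.93 ± 0.11, adjusted p = 1.68e-05 from edgeR). It had 0.94 ± 0.30 in KO assembloids, and Ddit4 had 1.25 ± 0.18 in WT and 0.81 ± 0.29 in KO assembloids. The other calls upward were Slc2a1, Fam162a, Car12, Stc2 and Nxph4 in WT (0.71 ± 0.21, 0.62 ± 0.20, 0.84 ± 0.30, 0.92 ± 0.37 and 0.71 ± 0.22) and Hilpda in KO assembloids (0.66 ± 0.17). Car9, Egln3 and Ndufa4l2 did not pass in either genotype, with log2 fold changes between -0.37 and 0.42. In the 10 fits per genotype that left out 1 library, every call downward held. In KO assembloids, Ddit4 was lost in 5 of these fits and Plin2 in 2. In WT assembloids, Stc2 was lost in 6, Car12 in 2 and Fam162a in 1.

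The compartments of 1 assembloid group can share a mouse, and 4 cores and 4 hydrogels of each genotype were matched by the title code and animal number. With that match as a block, 14 members were called in KO assembloids (8 higher and 6 lower), against 20.7% of all genes higher and 25.6% lower, so these counts too lay near or under the shares over all genes. The additional calls were Slc2a1, Car12, Higd1a, Stc2, Fam162a and, downward, Ak4. In WT assembloids the block called 13, with Ak4 (-0.63 ± 0.15) and Ankrd37 (-0.53 ± 0.16) added and Nxph4 (0.44 ± 0.11) lost, which gave 6 higher and 7 lower against 19.0% and 25.5% of all genes. Among these 4 pairs, the core with the lowest level of a member belonged to the hydrogel with the lowest level in 25 of 33 members in KO and in 15 of 33 in WT assembloids. For the highest level, the same held in 11 and 14 members. With 4 pairs, 1 in 4 members would agree without any link between the compartments. Members that shift together in a library are not separate observations, and the share over all genes was not counted. Core replicate 3 and hydrogel replicate 4 labelled KO, which stood apart as low, were 1 of these pairs.

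**Figure D4:**
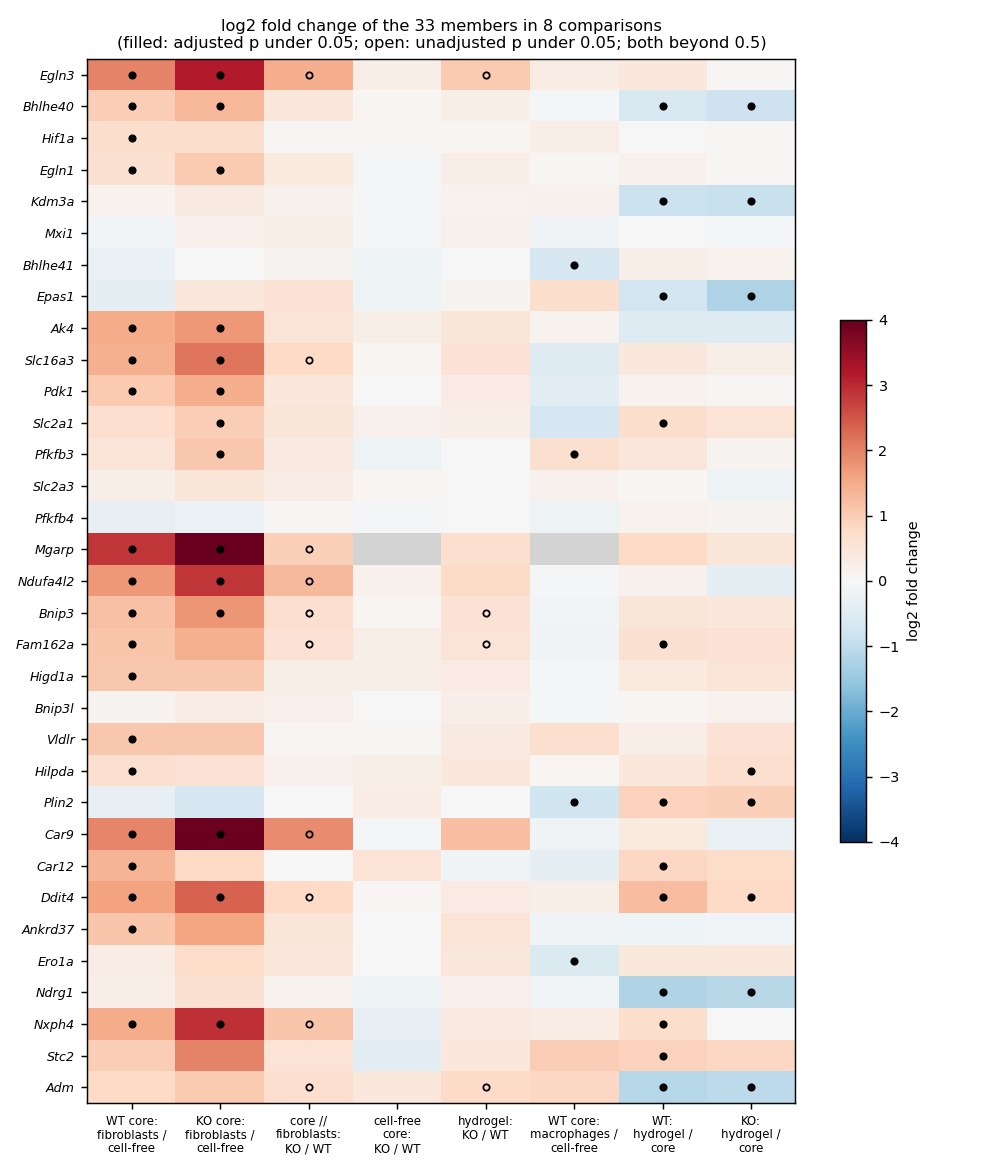
The colour shows the log2 fold change of each member, grouped by role, in 8 comparisons side by side, with grey where a gene was not tested, filled dots for calls at an adjusted p and open dots for calls at an unadjusted p. The fibroblast comparisons reach 3.94, while the cell-free KO over WT comparison runs from -0.45 to 0.56.

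Across all 7 groups, Car9 had means of 3.25, 3.45 and 3.65 CPM in the macrophage, KO cell-free and WT cell-free cores, which lay within each other's spread. They were 14.1 ± 6.00 CPM in WT cores with fibroblasts, 19.1 ± 17.6 CPM in WT hydrogels, 43.7 ± 36.3 CPM in KO hydrogels and 52.3 ± 29.8 CPM in KO cores with fibroblasts (SD, n = 4 for cores and 6 for hydrogels), and the ranges of these 4 groups overlapped. Hif1a had its lowest mean in WT cell-free cores (361 ± 56.1 CPM) and its highest in KO hydrogels (629 ± 71.3 CPM). Mxi1, Pfkfb4, Bnip3l and Slc2a3 were not called in any comparison.

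Other genes of the pathway, from lists of 15 HIF regulators and 42 further targets, were read from the same fits. Of 41 further targets tested, 14 were called higher and none lower in WT cores with fibroblasts, against 1.51% and 1.11% of all genes. In those labelled KO, 3 further targets were called higher, against 0.301% of all genes. In WT cores, the called targets with the lowest p were Tmem45a (1.17 ± 0.12), the collagen hydroxylases Plod2 (1.08 ± 0.12) and P4ha1 (0.93 ± 0.11) and the lysyl oxidase Loxl2 (1.19 ± 0.15). In cores labelled KO the 3 were the growth factor binding protein Igfbp3 (1.48 ± 0.16), the collagen hydroxylase P4ha2 (1.88 ± 0.24) and the glycogen synthase Gys1 (1.18 ± 0.17).

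Of the 15 regulators tested, none was called higher and 1 lower in WT cores with fibroblasts, namely Cited2, an inhibitor of HIF (-0.53 ± 0.12, adjusted p = 0.0447 from edgeR). None was called in cores labelled KO. The shares over all genes are those given for the further targets. Between genotypes in cores with fibroblasts, 3 further targets were called higher at an unadjusted p, namely Ier3 (0.77 ± 0.22), P4ha2 (0.75 ± 0.25) and the angiogenic factor Vegfa (0.67 ± 0.27). Ier3 was also called in the hydrogels (0.65 ± 0.23). Of all genes, 1.55% were called higher in those cores and 0.506% in the hydrogels. In the macrophage comparison Angptl4 was called higher (1.36 ± 0.21), and the heme oxygenase Hmox1 (-1.49 ± 0.23) and the aldolase Aldoc (-1.40 ± 0.26) were called lower, against 0.754% and 3.85% of all genes. No further target or regulator was called between cell-free cores. Of 41 further targets tested in the hydrogels against the cores, 18 were called higher and 5 lower in WT, and 12 and 3 of 41 in KO assembloids, where 18.1% and 17.0% of all genes were called higher and 24.7% and 24.6% lower.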

How the data were processed

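RNA sequencing of 32 mouse libraries in 7 groups was analysed, each library with 1 table of 25700 genes. The authors deposited estimated counts per gene, made with kallisto 0.46.1 and, per the submitters' processing notes, build GRCm39, with an annotation release that no source used here names. The counts are whole numbers, not normalized, with 20.4 to 59.9 M per library. RNA was accepted from an integrity number of 2. Pseudoaligned reads can be shared among near-identical gene copies, which such estimates split.

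Groups came from the sample titles and characteristics. Genes passing filterByExpr entered the quasi-likelihood test of edgeR 4.0.16 (R 4.3.3) after TMM scaling, on the groups compared, with p adjusted over all genes tested by Benjamini-Hochberg. The SE is the size of the log2 fold change over the root of its F statistic. Hydrogels and cores with fibroblasts were compared between genotypes at the study's unadjusted p under 0.05, and in the others the p was adjusted. A fold change beyond 0.5 on the log2 scale was also required, except for the interaction. Levels are CPM, with a prior count of 2 for log2 CPM. Exact permutation tests were two-sided. The fit was tested on simulated data.

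Every member that passed was named, or up to 3 with the lowest p where fewer than 3 passed, and up to 4 further pathway genes. Members and lists were chosen with earlier results of these data known. Replicate numbers paired samples where every pair's deviations correlated over 0.1, as in the hydrogels (0.26 to 0.601), the macrophage comparison (0.194 to 0.341), the KO fibroblast comparison (0.205 to 0.39) and, by title code and animal, the compartments (0.234 to 0.439). Alternatives were DESeq2 1.42.0, its size factors, other filters, the block, all core groups in 1 fit and leaving out each library. Each core library came from 1 mouse, but cores of different groups within a genotype share title codes and animal numbers and may come from the same mice. Seeded fibroblasts were pooled, so p-values do not cover the spread between fibroblast donors. No libraries of the same group were duplicates by a chi-square test of their counts. Libraries of different groups were not compared in this way.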

Additional observations from a re-analysis of the deposited data

Results flagged for a closer look

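In 13 of 231 group and gene combinations, 1 library lay farther from the others than Dixon's 95% limit allows, where chance gives about 1 in 20. Of these, 6 were in hydrogels and came from 2 libraries. WT hydrogel replicate 5 was high in Car9 (53.8 CPM, next 21.8), Nxph4 (10.2 CPM, next 6.54) and Mgarp (7.09 CPM, next 3.21). KO hydrogel replicate 6 was high in Car9 (113.0 CPM, next 44.1), Adm (66.1 CPM, next 36.9) and Mgarp (11.2 CPM, next 5.03). In KO cell-free cores, replicate 1 was high in Higd1a (19.3 CPM, next 10.6) and Hilpda (10.1 CPM, next 7.49), and replicate 2 in Egln3 (1.98 CPM, next 0.799). In KO cores with fibroblasts, replicate 1 was high in Pfkfb4 (29.9 CPM, next 21.8) and replicate 3 low in Mxi1 (33.5 CPM, next 38.5). In WT cores with macrophages, replicate 2 was high in Slc2a1 (37.9 CPM, next 24.4) and replicate 1 low in Hilpda (6.05 CPM, next 7.42).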

How the results depend on the processing

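The fibroblast comparisons kept a positive median log2 fold change under every alternative run, from 0.76 (without WT core // cell-free replicate 1) to 1.06 in WT cores and from 0.97 to 1.19 in cores labelled KO when libraries were left out. The number of members called was less stable. Leaving out 1 library gave 2 to 20 in WT cores, 1 to 20 in KO cores, 4 to 16 between genotypes in cores with fibroblasts, 1 to 9 in the hydrogels and 1 to 5 beside macrophages. In KO cores with fibroblasts, DESeq2 called 23 members, the replicate block 22, a fit of all 5 core groups 23 and an unadjusted p 25. Genes called higher over all genes rose from 48 to 272, 223 and 198 in the first 3 of these. In WT cores with fibroblasts DESeq2 also called 23 members, against 428 genes called higher and 346 lower over all genes. Beside macrophages, DESeq2 and an unadjusted p each called 8 members and the replicate block 7. Over all genes, DESeq2 called 301 higher and 848 lower there, and the block 240 and 809. In the KO hydrogel against the core, the replicate block called 14 members, against 3277 genes higher and 4060 lower. Between genotypes, with no threshold on the fold change, 18 members were called in cores with fibroblasts and 8 in the hydrogels, and with an adjusted p 0 in both. The numbers of all genes at an unadjusted p under 0.05 are given with these comparisons above. The hydrogel replicate block called 2 members, and 9 without pair 5, an alternative chosen after seeing the data. Over all genes, these 2 fits called 88 and 158 higher and 124 and 270 lower. For the interaction an unadjusted p called 7. Leaving out 1 library, the median log2 fold change ran from -0.0399 to 0.0908 between cell-free cores, turning negative without KO replicate 1 and, at -0.0196, without WT replicate 4, and from -0.129 to 0.0251 beside macrophages, turning positive without cell-free replicate 2 and, at 0.0191, without macrophage replicate 1. The cause of these changes was not tested. In WT cores with fibroblasts and between genotypes in such cores, same-numbered samples did not all correlate over 0.1. There the replicate block called 21 and 12 members, against 296 and 270 genes called higher over all genes. Depth limits the lowest members, such as Mgarp with 3 to 12 counts in WT cell-free cores.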
